A study of Mus musculus with 45 samples.

Results

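The step between 6 and 24 h of SOX2 depletion was read from 4 ATACseq libraries of mouse embryonic stem cells (mESC), 2 made at 6 h and 2 at 24 h after the protein was sent for degradation. They are 4 of the 31 libraries of the count table and of the 45 samples of the series. ATACseq uses the transposase Tn5, which inserts adapters into accessible DNA, so the count of fragments over a peak measures how open that stretch of chromatin is. The members are the peaks of that table that changed between these 2 times: of 160432 peaks with enough counts, 747 were called more accessible at 24 h than at 6 h (gained) and 1766 less accessible (lost). A peak whose summit lay within 500 bp of an annotated start was called a promoter peak, and one with its summit more than 2000 bp from any start was called distal.

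The cells were SOX2-FKBP mESC of the E14 line, homozygous clones in which SOX2 carries the FKBP degron tag. dTAG-13, at 500 nM, links the tag to a ubiquitin ligase, and the tagged protein is destroyed by the proteasome. The groups were SOX2-FKBP_6H and SOX2-FKBP_24H, with dTAG-13 for 6 and 24 h, and SOX2-FKBP_NT, which received DMSO alone from when the 24 h treatment began. NT cells carry the tag too, and all cells were grown on gelatin in serum-free medium with LIF and inhibitors of MEK and GSK3-β, also during depletion. Libraries at 0.5, 1 and 2 h complete the time course, with 2 libraries at each time. OCT4-FKBP cells of the V6.5 line and NANOG-FKBP cells of the E14 line, treated in the same way, served for comparison, so the depleted factor and the cell line cannot be told apart for OCT4. The labels do not give the clone of a library, and nothing in them ties the replicates to separate cultures, so that p-values measure the spread between these libraries, which may be technical.

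SOX2 is a pioneer factor, a protein that can bind DNA in closed chromatin and open it. It acts at enhancers with OCT4, a POU factor, and both belong to the network that keeps mESC pluripotent. The first regions to close after depletion are those that SOX2 itself holds open. Later changes can also follow from changes in the levels of other transcription factors, signalling molecules and chromatin proteins, and from the change of cell identity that loss of the network brings. The comparison of 24 h with 6 h addresses which promoters and distal regions change only in that later step.

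The cells were checked against markers of the labelled cell type. The median accessibility over the 27 promoter peaks of naive pluripotency genes was 161 normalized counts per kb of peak at NT, 150 at 6 h and 115 at 24 h. Over the 6 promoter peaks of fibroblast genes it was 36.0, 35.8 and 29.7. Promoter peaks of general cell functions had NT medians of 211 for sterol synthesis, 142 for ribosomal protein and 65.4 for junction and cytoskeleton genes. The level of the naive genes lies within that range and does not by itself show the cell type. The 12 SOX2-FKBP libraries held 5664738 to 10887645 fragments in peaks, the 6 h libraries 9850181 and 10887645 and the 24 h libraries 9496229 and 9624818. Replicates differed by more than counting noise, with a chi-square per peak of 1.56 at 6 h and 1.87 at 24 h. At each of these times neither replicate was thus a copy of the other. The share of fragments in promoter peaks was 30.7 to 31.0% at NT, 33.9 to 34.6% at 6 h and 36.3 to 38.5% at 24 h. This share moved with the promoter medians given below, and its part in them was not tested.

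Peaks were put into a late class when they were called at 24 h against 6 h, called in the same direction at 24 h against NT, and not called at 6 h against NT. This gave 547 late gained and 911 late lost peaks. The windows of 200 bp around the summits of 8 late peaks are printed first because they are among the largest late changes or carry the motifs that were more frequent in late peaks than in other regions. Positions are in mm10 on the plus strand, and the letters were read from the reference genome of that build. Capitals mark matches on either strand to the motif named before each sequence. The motifs are SOX (ACAAAG or ACAATG), POU octamer (ATGCNAAT), ZIC (CNCAGCNGG), TCF (CTTTGAT), ESRRB (CAAGGTCA), AP-1 (TGANTCA), KLF (GGGNGTGG) and TFAP2 (GCCNNNGGC), and palindromic matches to AP-1 and TFAP2 lie on both strands at the same place. A match is a run of letters in the window and no evidence of binding.

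The first 5 windows belong to late lost peaks. They are an intronic region 49.6 kb from the Dynlt1b start (chr17:6479584-6479783, SOX and POU octamer), an intergenic region 6.7 kb from the Eomes start (chr9:118471374-118471573, POU octamer), an intergenic region 30.1 kb from the Lhfpl2 start (chr13:94027550-94027749, ZIC), an intronic region 11.1 kb from the nearest Tenm4 start (chr7:96198427-96198626, TCF) and the promoter of Nin (chr12:70103320-70103519, TCF and ZIC). The last 3 belong to late gained peaks, in introns 33.3 kb from the Tbc1d1 start (chr5:64197015-64197214, ESRRB and AP-1) and 4.4 kb from the Dus2 start (chr8:106044218-106044417, ESRRB and KLF), and at the promoter shared by Krt7 and the divergent transcript Gm671 (chr15:101412212-101412411, TFAP2).
Dynlt1b: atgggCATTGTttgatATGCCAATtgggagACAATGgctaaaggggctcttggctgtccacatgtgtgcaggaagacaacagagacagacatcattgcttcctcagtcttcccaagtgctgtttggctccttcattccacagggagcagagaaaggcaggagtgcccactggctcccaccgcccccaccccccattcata
Eomes: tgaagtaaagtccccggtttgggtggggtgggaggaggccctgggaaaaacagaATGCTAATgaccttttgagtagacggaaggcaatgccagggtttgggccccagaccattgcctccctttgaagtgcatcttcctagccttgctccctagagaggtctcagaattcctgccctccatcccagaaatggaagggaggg
Lhfpl2: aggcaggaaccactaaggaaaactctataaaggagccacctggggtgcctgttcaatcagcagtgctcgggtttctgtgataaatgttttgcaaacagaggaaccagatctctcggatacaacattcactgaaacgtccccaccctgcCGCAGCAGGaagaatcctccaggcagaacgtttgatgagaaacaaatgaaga
Tenm4: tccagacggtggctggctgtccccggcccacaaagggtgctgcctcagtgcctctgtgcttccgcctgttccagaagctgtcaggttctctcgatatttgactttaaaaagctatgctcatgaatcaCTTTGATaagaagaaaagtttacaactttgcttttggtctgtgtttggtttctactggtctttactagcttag
Nin: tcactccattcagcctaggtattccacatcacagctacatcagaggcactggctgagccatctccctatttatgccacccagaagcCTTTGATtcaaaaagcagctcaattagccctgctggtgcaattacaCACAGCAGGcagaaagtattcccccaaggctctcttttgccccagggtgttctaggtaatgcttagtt
Tbc1d1: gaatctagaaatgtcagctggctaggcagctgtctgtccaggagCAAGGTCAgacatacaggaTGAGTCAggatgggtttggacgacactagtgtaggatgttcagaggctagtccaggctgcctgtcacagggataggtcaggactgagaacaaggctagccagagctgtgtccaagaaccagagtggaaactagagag
Dus2: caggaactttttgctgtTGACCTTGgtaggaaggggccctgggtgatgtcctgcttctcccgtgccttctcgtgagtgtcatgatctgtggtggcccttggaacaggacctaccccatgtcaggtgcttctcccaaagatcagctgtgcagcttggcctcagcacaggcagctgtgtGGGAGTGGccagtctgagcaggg
Krt7 and Gm671: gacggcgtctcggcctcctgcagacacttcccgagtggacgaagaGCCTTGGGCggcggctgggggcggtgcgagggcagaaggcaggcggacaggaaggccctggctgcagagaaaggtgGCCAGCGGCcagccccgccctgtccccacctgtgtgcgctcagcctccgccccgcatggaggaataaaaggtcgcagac

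Between 6 and 24 h more regions closed than opened, most of them away from promoters. Over all 160432 peaks, 0.466% were gained and 1.1% were lost at 24 h against 6 h (edgeR's quasi-likelihood test, Benjamini-Hochberg adjusted p under 0.05). Among 23003 promoter peaks, 137 were gained (0.596%) and 111 lost (0.483%). Among 121370 distal peaks, 537 were gained (0.442%) and 1488 lost (1.23%). The promoter calls were split almost evenly. Over all peaks, 23455 had an unadjusted p under 0.05, and DESeq2 called 83 gained and 651 lost. In this bulk assay, fewer cells with an open region and a less open region in every cell cannot be told apart.

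With the replicate number as a block in the fit, which removes differences shared by libraries of the same number, the counts rose to 3878 gained (2.42%) and 5233 lost (3.26%). The promoter counts then were 1306 gained (5.68%) and 315 lost (1.37%), and the distal counts 2233 (1.84%) and 4425 (3.65%). In all 747 gained and 1766 lost peaks both 24 h libraries lay beyond both 6 h libraries in the same direction. The same libraries chose these peaks, so this separation describes them and is no support for the calls. Its share over all tested peaks was not counted. Each of these 4 libraries carries weight in the counts. Without 6 h replicate 1 there were 196 gained and 429 lost peaks, without 6 h replicate 2 there were 57 and 387, without 24 h replicate 1 there were 156 and 575, and without 24 h replicate 2 there were 468 and 488.

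The median over promoter peaks was slightly higher at 24 h. Their median log2 difference was 0.16, with 71.0% of them higher at 24 h, against a median of -0.04 over the distal peaks and 0.00 over all peaks. The 4 pairs of 1 library at 24 h and 1 at 6 h gave promoter medians of 0.08, 0.12, 0.16 and 0.23, and distal medians of -0.03 to -0.06. The median rose with the GC content of the 200 bp window, from 0.02 in the promoter peaks with the lowest GC content to 0.19 in those with the highest, and from -0.07 to 0.02 in distal peaks. Offsets that even out GC content brought the promoter median to 0.07 and the promoter counts to 111 gained and 138 lost, so that 44.6% of promoter calls were gains instead of 55.2%. Scaling by total counts gave 117 gained and 164 lost promoters, or 41.6% gains among promoter calls, and 17.8% gains instead of 29.7% among all calls. The balance between gained and lost promoters therefore turned over with the scaling in the fit without the block. With the block and GC offsets together, 731 promoters were gained and 440 lost, or 62.4% gains, against 80.6% with the block alone. The promoter median stayed positive under each of these settings.

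**Figure D1:**
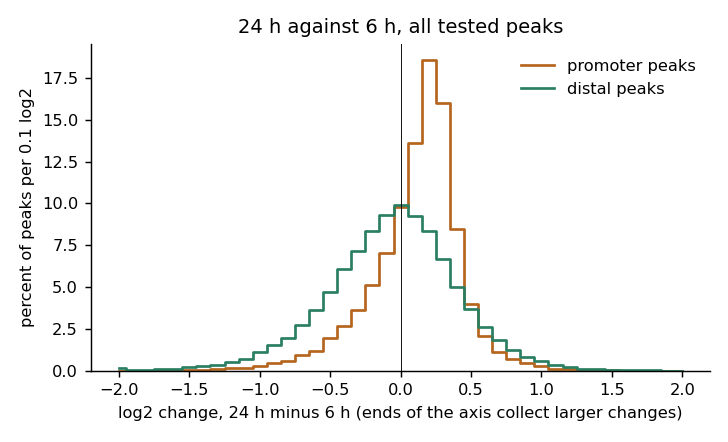
Distribution of the log2 difference, 24 h minus 6 h, over 23003 promoter peaks and 121370 distal peaks, as the percent of peaks in each bin 0.1 wide; changes past the ends of the axis are collected in the end bins. The promoter curve is narrower and has its median at 0.16, and the distal curve is wider with its median at -0.04.

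The late classes were followed through the time course. Relative to the NT mean, the median of the 547 late gained peaks was 0.27 and 0.11 at 2 h in the 2 libraries, 0.36 and 0.23 at 6 h, and 1.40 and 1.27 at 24 h, on the log2 scale. The median of the 911 late lost peaks was 0.07 and 0.05 at 2 h, -0.07 and -0.08 at 6 h, and -1.11 and -1.15 at 24 h. The lost class thus stayed near its NT level until 6 h, and the gained class had already risen slightly. The values at 6 and 24 h chose the classes, so these medians describe them and test nothing. By position, 106 of the late gained peaks were promoter peaks and 390 distal, and 59 of the late lost peaks were promoter peaks and 760 distal.

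Absence of a call at 6 h does not show absence of a change by 6 h, so the change after 6 h was compared with the change before it within the same fit. This step difference was significant for 95 of the 911 late lost peaks (10.4%) and for 2 of the 547 late gained peaks (0.366%). Over all peaks, it was negative and significant in 0.39% and positive in 0.962%. It rests on single libraries: the 95 late lost peaks became 4 without 6 h replicate 1, 11 without 6 h replicate 2, 15 and 23 without NT replicate 1 or 2 and 45 without 24 h replicate 2, and DESeq2 gave 14. With the replicate block it was significant for 411 of 2257 late lost peaks (18.2%) and 38 of 2678 late gained peaks (1.42%). Both changes use the 6 h libraries, and the classes were chosen on them. For most late peaks, gained ones above all, a larger change after 6 h than before it was thus not shown at this depth and number of libraries.

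For reference, against NT 2.66% of peaks were gained and 9.28% lost at 6 h, and 9.17% were gained and 14.1% lost at 24 h. The comparisons with NT share the 6 h or the 24 h libraries with the comparison of 24 h with 6 h.

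**Figure D2:**
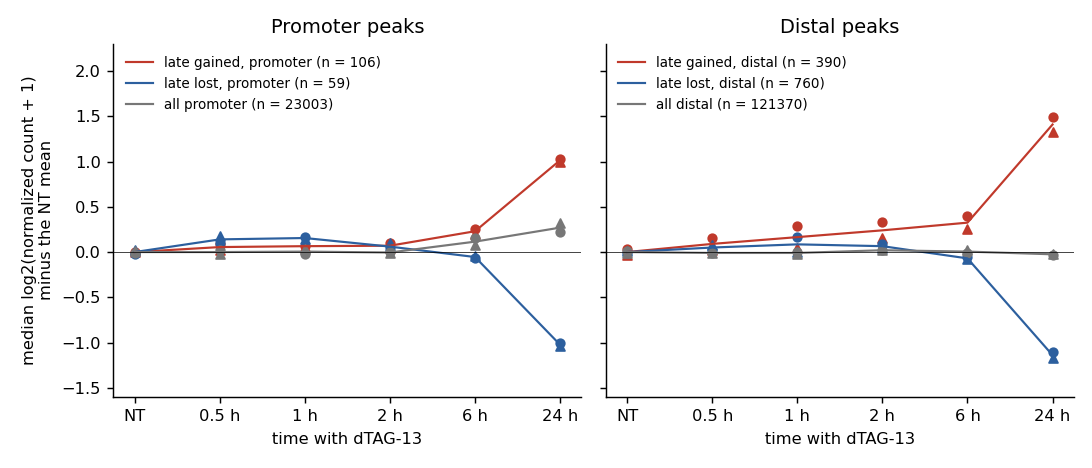
Median log2(normalized count + 1) minus the NT mean over promoter peaks (left) and distal peaks (right) for each library of the time course, with circles for replicate 1, triangles for replicate 2 and lines through their means; times on the x axis are hours with dTAG-13. The late gained distal peaks reach 1.49 and 1.33 and the late lost distal peaks -1.11 and -1.17 at 24 h, and late lost peaks of both kinds lie between -0.08 and 0.18 up to 6 h.

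Peaks that had closed early were lost further more often than peaks in general, though few of them were called. At 2 h, 11680 peaks (7.28%) were lost against NT, a comparison that uses neither the 6 h nor the 24 h libraries. Of these, 387 were lost further between 6 and 24 h (3.31%, against 1.1% of all peaks) and 9 were regained (0.0771%, against 0.466%). Their median log2 difference between 6 and 24 h was -0.32, with 76.0% lower at 24 h. Relative to the NT mean, their median was -1.37 and -1.26 at 2 h in the 2 libraries, -1.52 and -1.41 at 6 h, and -1.83 and -1.75 at 24 h. With the replicate block, 1280 of 15005 such peaks were lost further (8.53%, against 3.26% of all peaks) and 103 regained (0.686%, against 2.42%). Peaks with more counts or a smaller spread are called more readily at any time, and the part of both in these shares was not tested. The 387 became 265 and 291 without 2 h replicate 1 or 2, and 84 to 241 without 1 library of NT, 6 or 24 h.

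Peaks that had opened early had larger shares of both calls than all peaks. At 2 h, 2339 peaks (1.46%) were gained against NT. Between 6 and 24 h, 155 of them were lost (6.63%, against 1.1% of all peaks) and 30 were gained further (1.28%, against 0.466%). Their median log2 difference from 6 to 24 h was -0.16. With the block, 671 of 5641 were lost (11.9%, against 3.26%) and 259 gained (4.59%, against 2.42%). The 2 h gained set was added after the data had been seen, and the part of count level and of the shared spread in its shares was not tested either.

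Mesendoderm genes had the highest share of lost distal peaks among the 16 gene lists counted, given here without a test of the list. Of 85 distal peaks nearest to 14 genes of this list, 8 were lost between 6 and 24 h (9.41%, against 1.23% of all distal peaks) and none was gained by edgeR, with a median log2 difference of -0.20 against -0.04 over all distal peaks. At an unadjusted p under 0.05, 21 were lower and 2 higher, and DESeq2 called 4 lost and 0 gained. With the replicate block 12 were lost and 0 gained, where 3.65% of all distal peaks were lost and 1.84% gained. Of the 11 promoter peaks of the list 1 was lost (9.09%, against 0.483% of all promoter peaks) and none gained. The 14 genes include Nodal, Lefty1 and Lefty2, and the peaks near Lefty1 and Lefty2 given below were well open at NT. The losses are thus not all at regions that were closed in untreated mESC. The next highest share was that of the fibroblast list, markers of other cells that a culture may hold, with 4 of 61 distal peaks lost (6.56%), none gained by edgeR and a median of 0.01. The part of such cells in the mesendoderm result was not tested.

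Lefty2 and Lefty1 are neighbouring genes for secreted inhibitors of Nodal, a signal that induces mesendoderm. The peak 4.3 kb from the Lefty2 start (chr1:180888100-180890174, intergenic) had 805.7 and 877.8 normalized counts at NT, 867.6 and 769.9 at 2 h, 718.3 and 594.2 at 6 h, and 236.8 and 202.1 at 24 h. Both 24 h libraries were far below all the others, 2.99 times lower than at 6 h, and the log2 difference between 6 and 24 h was -1.58 ± 0.17 (SE; adjusted p = 3.04e-06, n = 2 libraries per time, edgeR). For this peak the step difference was also significant (-1.22, adjusted p = 0.0196).

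The peak 10.1 kb from the Lefty1 start (chr1:180924545-180925798, intergenic) followed another course. It had 303.0 and 315.7 normalized counts at NT, 125.4 and 141.7 at 2 h, 74.4 and 71.7 at 6 h, and 12.6 and 23.6 at 24 h. Each of these times was lower than the one before, and the peak was already called lost at 2 h (log2 difference from NT -1.21, adjusted p = 2.18e-06, edgeR). It fell by 2.00 on the log2 scale from 6 to 24 h (SE 0.27, adjusted p = 5.89e-05, edgeR). Its step difference was not significant (0.08, adjusted p = 0.978).

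Evx1 encodes a homeodomain protein of the primitive streak. A peak in its intron, 2.0 kb from the start (chr6:52311358-52311734), first opened and then closed. It had 19.1 and 21.2 normalized counts at NT, 55.6 and 53 at 2 h, 42.3 and 41.8 at 6 h, and 3.9 and 8.5 at 24 h. The rise was significant at 2 h (log2 difference from NT 1.44, adjusted p = 0.000644, edgeR), and the later loss was the largest of the list (-2.73 ± 0.38, adjusted p = 0.000112).

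Gsc, for a homeodomain repressor of the organizer, had a peak at 65.3 kb with 55.1 and 31.5 normalized counts at 6 h and 16.5 and 14.2 at 24 h (log2 difference -1.47 ± 0.31, adjusted p = 0.00869, edgeR). It was already lower than at NT at 6 h (-1.22, adjusted p = 0.000143). Eomes, a T-box factor of mesendoderm and of trophectoderm, was on the trophectoderm list. Its peak at 6.7 kb, whose window with an octamer is printed above, had 84.2 and 93.4 normalized counts at NT, 155.4 and 134.7 at 1 h, 118.8 and 140.9 at 2 h, 91.8 and 85.9 at 6 h, and 31.1 and 18.9 at 24 h. All libraries at 1 and 2 h lay above those at NT (adjusted p = 0.0666 at 2 h), and the peak was back within the range of the NT libraries at 6 h and lay far below it at 24 h, with a log2 difference of -1.83 ± 0.24 (adjusted p = 5.43e-05) and a significant step difference (-1.84, adjusted p = 0.00657, edgeR).

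A few peaks of naive pluripotency genes were lost. Of 367 distal peaks nearest to genes of this list, 10 were lost and 1 gained (2.72% and 0.272%, against 1.23% and 0.442% of all distal peaks), and of their 27 promoter peaks 2 were lost (7.41%, against 0.483%) and none gained. The distal median was -0.15. With the block, 36 distal and 4 promoter peaks were lost, against 3.65% of all distal and 1.37% of all promoter peaks. In that fit 2 distal peaks of the list were gained, against 1.84% of all distal peaks. The promoter of Tdh, which encodes threonine dehydrogenase, had 406.3 and 370.9 normalized counts at NT, 209.4 and 140.3 at 6 h, and 91.2 and 79.3 at 24 h (log2 difference from 6 to 24 h -1.03 ± 0.19, adjusted p = 0.00309, edgeR). It had fallen at 2 h as well.

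A peak 55.8 kb from the start of Klf5, a Krüppel-like factor, went from 131.3 and 128.4 normalized counts at 6 h to 56.3 and 68.9 at 24 h (-1.05 ± 0.19, adjusted p = 0.00172, edgeR), after 301.3 and 277.5 at NT. Spry4, an inhibitor of receptor tyrosine kinase signalling, had late lost peaks at 3.6 and 30.8 kb. The peak at 30.8 kb held 61.5 and 74.9 normalized counts at 6 h and 27.2 and 25.5 at 24 h (-1.37 ± 0.25, adjusted p = 0.00214).

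At the core factors themselves, the promoter peak of Sox2 held 332.5 and 357.0 normalized counts at 6 h and 252.3 and 338.1 at 24 h, so that the groups overlapped (-0.22 ± 0.16, adjusted p = 0.555, edgeR). The promoter peak of Nanog held 208.5 and 198.6 at 6 h and 142.7 and 154.9 at 24 h. Its log2 difference of -0.45 ± 0.16 did not pass the test without the block (adjusted p = 0.158) and did with it (adjusted p = 0.0358). A promoter peak of Pou5f1 is not analysed here.

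Formative and primed epiblast genes, which mark the state that follows naive pluripotency, showed 6 lost and 1 gained peaks of 215 distal peaks. These shares were 2.79% and 0.465%, against 1.23% and 0.442% of all distal peaks. None of their 24 promoter peaks was called by edgeR or DESeq2, and 4 had an unadjusted p under 0.05. With the block, 11 distal peaks were lost and 3 gained, and 2 promoter peaks were lost and 1 gained. In that fit 3.65% of all distal peaks were lost and 1.84% gained, and 1.37% of all promoter peaks were lost and 5.68% gained. A peak 15.4 kb from Foxd3, a forkhead repressor, fell from 28.5 and 25.2 normalized counts at 6 h to 8.7 and 7.6 at 24 h (-1.70 ± 0.36, adjusted p = 0.0095, edgeR). A peak 3.1 kb from Zic5, a zinc finger factor, fell from 72.6 and 82.0 to 32.0 and 37.8 (-1.15 ± 0.23, adjusted p = 0.00614), having stood at 145.0 and 133.1 at NT. A peak 11.7 kb from Pou3f1, which encodes the POU factor OCT6, rose from 73.8 and 49.6 at NT to 132.3 and 111.1 at 6 h and was back at 86.4 and 43.4 at 24 h (-0.91 ± 0.23 from 6 to 24 h, adjusted p = 0.0366).

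Other lineage lists had few calls. For the primitive endoderm list, 1 of 183 distal peaks was lost (0.546%), near Sparc, and for the neural list 1 of 56 (1.79%), at 60.3 kb from Sox1. Of all distal peaks 1.23% were lost. No promoter peak of either list was called by edgeR or DESeq2, of 20 and 10, with 2 and 1 of them at an unadjusted p under 0.05. With the block, 5 primitive endoderm distal peaks were gained and 4 lost, and 1 neural distal peak was gained and 5 lost. Over all distal peaks, 1.84% were gained and 3.65% lost in that fit. The Sox1 peak held 124.0 and 135.5 normalized counts at 6 h and 55.3 and 69.9 at 24 h (-1.05 ± 0.23, adjusted p = 0.0104, edgeR).

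Trophectoderm genes mark the outer lineage of the blastocyst, which mESC do not normally form. Of their 24 promoter peaks, 2 were gained (8.33%, against 0.596% of all promoter peaks) and the median was -0.01. Of 177 distal peaks 1 was gained (0.565%) and 3 were lost (1.69%), against 0.442% and 1.23% of all distal peaks. With the block 8 of the 177 were gained and 7 lost, where 1.84% of all distal peaks were gained and 3.65% lost. The promoter shared by Krt7, a keratin of simple epithelia and trophoblast, and Gm671 (chr15:101410800-101413011, window printed above) had 44.3 and 35.4 normalized counts at NT, 63.2 and 49.7 at 2 h, 85.4 and 49.6 at 6 h, and 181.5 and 133.1 at 24 h. Both 24 h libraries were above both 6 h libraries, 2.35 times on average (1.23 ± 0.22, adjusted p = 0.00236, edgeR). An intronic peak 50 kb from the start of Tead4, a TEA domain factor of trophectoderm, had 23.9 and 15.0 normalized counts at 6 h and 73.8 and 29.3 at 24 h (1.42 ± 0.33, adjusted p = 0.0191), with the 24 h libraries far from each other. Hand1, a basic helix-loop-helix factor of trophoblast and mesoderm, had a peak at 39.5 kb that was lost (-0.89 ± 0.20, adjusted p = 0.0169). Of 16 promoter and 163 distal peaks of YAP and TEAD target genes, none was called in either direction by edgeR, with promoter and distal medians of 0.18 and -0.05. DESeq2 called none of them either, and 7 were higher and 15 lower at an unadjusted p under 0.05. With the replicate block 2 were gained and 5 lost, against 2.42% and 3.26% of all peaks.

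**Figure D3:**
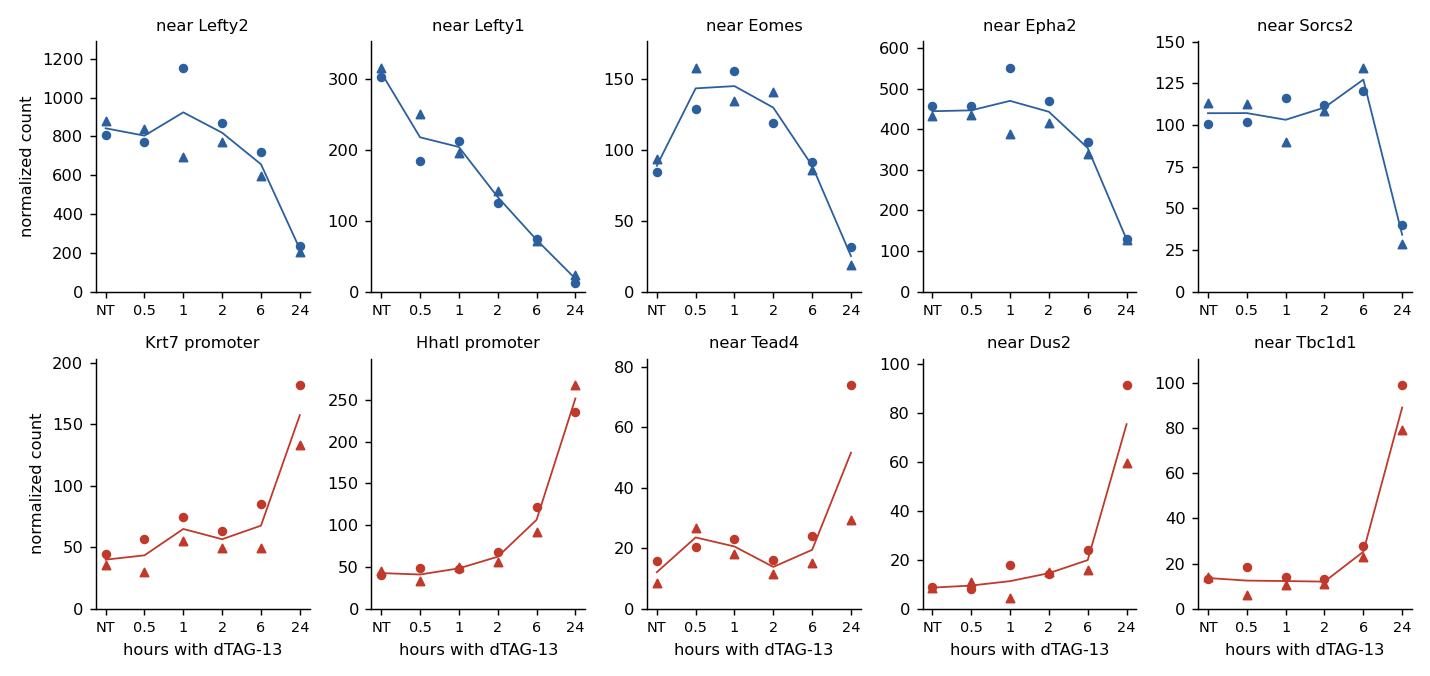
Normalized counts at 10 peaks over the SOX2-FKBP time course, with circles for replicate 1, triangles for replicate 2 and lines through their means; the x axis gives hours with dTAG-13 and the y axes start at 0 and differ. The upper row shows lost peaks near Lefty2 (4.3 kb), Lefty1 (10.1 kb), Eomes (6.7 kb), Epha2 (9.4 kb) and Sorcs2 (30.7 kb), and the lower row gained peaks at the Krt7 and Hhatl promoters and near Tead4, Dus2 and Tbc1d1; Lefty1 declined from the first time on and Hhatl rose before 6 h too.

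Some genes had several late lost peaks around them; over all distal peaks 0.626% were late lost and 0.321% late gained. The genes given are those with the most such peaks, so their counts are descriptions. Epha2, for an ephrin receptor tyrosine kinase, had 4 late lost of 18 distal peaks, with log2 differences of -1.77 to -0.63. The strongest of them in counts, 9.4 kb from the start (chr4:141291153-141292500), held 456.7 and 431.8 normalized counts at NT, 367.4 and 339.6 at 6 h and 129.1 and 127.5 at 24 h (-1.46 ± 0.17, adjusted p = 3.87e-06, edgeR), and its step difference was significant (-1.13, adjusted p = 0.0228). Sorcs2, for a sorting receptor, had 3 of 17, all in introns. Its peak at 30.7 kb held 100.7 and 113.3 normalized counts at NT, 120.3 and 134.0 at 6 h and 39.8 and 28.3 at 24 h (-1.90 ± 0.21, adjusted p = 3.87e-06), and its peak at 21.4 kb went from 36.7 and 37.0 at 6 h to 3.9 and 6.6 at 24 h (-2.78 ± 0.42, adjusted p = 0.000304). At both the 6 h libraries were at or above the NT level, and the step differences of -2.16 and -2.87 were significant (adjusted p = 0.000584 and 0.0094).

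Morc3 had 3 late lost of 11 distal peaks, Pole4 3 of 21, Lhfpl2 3 of 32, Col13a1 3 of 35, Plcb4 3 of 57 and Tenm4 3 of 85. Pole4, a small subunit of DNA polymerase epsilon, also had the lost peak with one of the smallest adjusted p-values. That intronic peak at 16.6 kb (chr6:82687888-82689374) was lost in both steps, with 235.3 and 239.3 normalized counts at NT, 121.2 and 139.5 at 6 h and 36.9 and 30.2 at 24 h (-1.96 ± 0.21, adjusted p = 3.04e-06, edgeR). The peak 30.1 kb from Lhfpl2, printed above for its ZIC motif, held 94.6 and 84.3 at 6 h and 47.6 and 33.1 at 24 h. The Tenm4 peak printed for its TCF motif is weaker, with 16.5 and 27.6 at 6 h and 4.9 and 6.6 at 24 h.

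Among late lost distal peaks with at least 50 normalized counts at 6 h, the largest losses lay near Dynlt1b, Pla2r1 and Gm10260. The Dynlt1b region, printed above with its pair of SOX matches on both sides of an octamer, held 105.1 and 75.0 normalized counts at NT, 137.7 and 122.7 at 2 h, 90.9 and 70.9 at 6 h, and 15.5 and 11.3 at 24 h (-2.58 ± 0.28, adjusted p = 3.04e-06, edgeR). It was 5.96 times lower at 24 h than at 6 h, and its step difference was significant (-2.38, adjusted p = 0.00165). It lies among tandem copies of the Dynlt1 and Tmem181 genes, so reads may be shared with near-identical sequence. The peak 17.2 kb from Pla2r1, a phospholipase A2 receptor, went from 52.4 and 48.9 to 9.7 and 15.1 (-2.01 ± 0.32, adjusted p = 0.000509).

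Lost promoters were often those of non-coding transcripts. A protein-coding gene had the nearest start at 47.5% of the 59 late lost promoter peaks, against 79.4% of all promoter peaks and 82.1% of the 106 late gained ones. The median GC content of the late lost promoter windows was 55.0%, against 60% over all. Among lost promoter peaks with at least 50 normalized counts at 6 h, the 6 largest losses were at 4 starts of such genes, Gm22325, Gm12690, Gm42951 and Gm26885, with log2 differences of -1.50, -1.32, -1.27 and -1.27, and at 2 protein-coding genes. Of these, Slc7a7, for a cationic amino acid transporter, went from 257.0 and 270.4 normalized counts at NT to 162.6 and 175.7 at 6 h and 68.9 and 69.9 at 24 h (-1.29 ± 0.18 from 6 to 24 h, adjusted p = 0.000147, edgeR). Nin, for the centrosomal protein ninein, stood at 93.8 and 70.8 at NT, 89.1 and 67.0 at 6 h and 30.1 and 34.0 at 24 h (-1.27 ± 0.24, adjusted p = 0.00334).

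The gained promoters with the largest changes were those of Gm28884, Galnt1, Il20rb, Hhatl, Fgg and Krt7. Hhatl, which encodes a relative of the Hedgehog acyltransferase, rose throughout, from 39.9 and 45.3 normalized counts at NT to 121.2 and 91.4 at 6 h and 235.8 and 267.2 at 24 h (1.25 ± 0.18 from 6 to 24 h, adjusted p = 0.000139, edgeR). It was already called at 6 h and so is not in the late class. Fgg, for the fibrinogen gamma chain, stood at 29.5 and 24.1 at NT, 23.9 and 35.5 at 6 h and 70.8 in both libraries at 24 h (1.24 ± 0.24, adjusted p = 0.00376). Il20rb, for a cytokine receptor chain, and Galnt1, for a glycosyltransferase that starts mucin-type O-glycans, changed by 1.29 and 1.30 on the log2 scale (adjusted p = 0.0107 and 0.00876), with all 24 h libraries above the 6 h ones. Gm28884 changed by 1.36 but had been lower at 6 h than at NT, at 30.3 and 18.1 against 40.8 and 48.1, and reached 73.8 and 49.1 at 24 h.

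Distal gains were smaller in counts. The peak 43.0 kb from Upp2, for uridine phosphorylase, went from 14.8 and 8.5 normalized counts at NT and 17.5 and 12.6 at 6 h to 62.1 and 55.7 at 24 h (1.98 ± 0.29, adjusted p = 0.000187, edgeR). The peak 4.4 kb from Dus2, a tRNA dihydrouridine synthase, went from 8.7 and 8.5 at NT and 23.9 and 15.8 at 6 h to 91.2 and 59.5 at 24 h (1.94 ± 0.29, adjusted p = 0.000274), a 3.83-fold rise. The Tbc1d1 intron, whose gene encodes a Rab GTPase-activating protein, went from 27.6 and 22.9 at 6 h to 99.0 and 79.3 at 24 h (1.82 ± 0.25, adjusted p = 8.83e-05). Near Fgfr1, a fibroblast growth factor receptor, a peak at 30 kb stayed at 15.6 and 15.0 at 6 h and reached 49.5 and 56.7 at 24 h (1.79 ± 0.28, adjusted p = 0.000529). Of genes with several late gained distal peaks, Bdh1 had 3 of 25 and Ptk2, for focal adhesion kinase, 3 of 23, with log2 differences of 0.94 to 1.67 and 0.96 to 1.44. Ctdp1, D430042O09Rik, Clec16a, Syf2, Zfp608 and C77080 had 2 each.

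Late lost distal peaks were regions that had been well open before depletion. Their median at NT was 76.5 normalized counts, against 24.9 over all distal peaks and 20.1 over the late gained ones, and their median width was 906 bp against 659 bp. Of the late lost distal peaks, 49.3% were intergenic, against 41.8% of all distal peaks. Another peak that was lost at 2 h lay within 50 kb of 54.1% of them, against 46.9% of all distal peaks and 39.2% of late gained ones. The summit lay in an annotated repeat in 22.1% of late lost, 9.74% of late gained and 19.5% of all distal peaks. Peaks with more counts are called more readily, and the part of this in the level and width was not tested.

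The late lost distal peaks differed from other distal peaks in the motifs at their summits. A ZIC motif stood in 18.9% of the 760 late lost windows, against 8.54% of all distal windows and 8.97% of late gained ones. The TCF motif, named for the transcription factors at the end of the Wnt pathway, stood in 10.5% against 4.13% and 3.33%. On the other strand it reads ATCAAAG, which is close to the SOX pattern ACAAAG. Which family of factors these matches belong to was not tested. The POU octamer was found in 6.71%, 4.27% and 2.56% of late lost, all and late gained windows, ETS (CCGGAAG) in 5.13%, 2.27% and 2.31%, and KLF in 18.4%, 13.5% and 12.1%. The SOX motif was found in 25.4% of late lost, 26.7% of all and 26.7% of late gained windows.

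CTCF motifs were scarce in both late classes, at 1.84% in late lost and 3.85% in late gained windows, against 9.81% of all distal windows. In late gained windows, ESRRB stood in 7.44% against 5.06% of all, GRHL (AACCNGTT) in 4.1% against 1.95%, and STAT (TTCCNGGAA) in 2.82% against 1.02%. The AP-1 motif was found in 8.97% of late gained, 9.21% of late lost and 7.63% of all distal windows. In promoter windows, TFAP2 stood in 18.9% of late gained, 6.78% of late lost and 16.1% of all.

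Some matches lie in repeats. Outside annotated repeats, ZIC stood in 14.9% of late lost and 6.69% of all distal windows and TCF in 7.37% and 3.21%. Among the distal peaks with at least 50 normalized counts at NT, ZIC was found in 17.2% of 522 late lost windows against 11% of 29406, TCF in 10.5% against 5.0%, ETS in 5.56% against 2.8% and CTCF in 2.11% against 8.01%. The differences for the POU octamer (7.09% against 5.89%) and KLF (19.3% against 16.3%) were smaller there, and SOX was less frequent in late lost windows (25.3% against 30.5%). Both of these comparisons were added after the data had been seen. The shares are descriptions without a test.

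**Figure D4:**
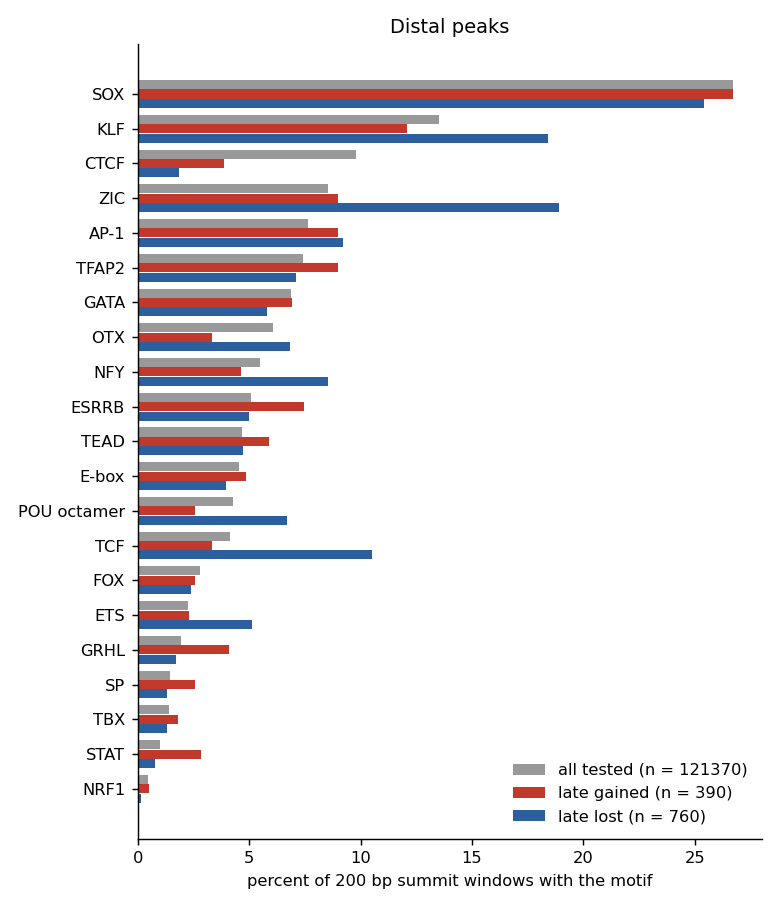
Percent of 200 bp windows around the summits of distal peaks that hold each of 21 motifs, for all 121370 tested distal peaks (grey), the 390 late gained (red) and the 760 late lost ones (blue). ZIC and TCF bars are longer for the late lost peaks and CTCF bars are shorter for both late classes.

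The same peaks were examined in the other depletion lines, whose libraries took no part in choosing them. A fit over 27 libraries of the 3 lines at NT, 2, 6 and 24 h gave values for 155681 of the peaks. In OCT4-FKBP cells, 3.04% of these peaks were gained and 4.69% lost from 6 to 24 h. The OCT4-FKBP libraries held 17071452 and 16201344 fragments in peaks at 6 h and 7790459 and 6378962 at 24 h. The part of this depth in the changes of that line was not tested. Of the 1758 peaks lost in SOX2-FKBP cells, 689 were lost in OCT4-FKBP cells too (39.2%) and 1 was gained, with a median log2 difference of -0.87 and 90.4% of the peaks lower. Of the 721 peaks gained in SOX2-FKBP cells, 115 were gained in OCT4-FKBP cells (16%) and 7 lost, with a median of 0.39. Of the late lost peaks, 348 of 908 were lost there (38.3%) and none gained, and of 525 late gained peaks 83 were gained (15.8%) and 5 lost.

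The Lefty2, Dynlt1b and Upp2 peaks moved in the same direction in both lines. In OCT4-FKBP cells, the Lefty2 peak had 1139.8 and 774.2 normalized counts at 6 h and 290.1 and 146.7 at 24 h (-2.13, adjusted p = 5.86e-05, edgeR). The Dynlt1b peak went from 84.7 and 115.2 to 13.4 and 12.8 (-2.92, adjusted p = 1.38e-05), and the Upp2 peak from 2.3 and 3.8 to 21.4 and 32.8 (3.10, adjusted p = 0.000266). Dus2 and Tbc1d1 did not pass the test there (-1.04 and 0.37, adjusted p = 0.283 and 0.709), at 10.2 and 18.4 against 5.3 and 8.5 for Dus2. The share of fragments in promoter peaks was 36.4 to 40.0% at 6 h and 41.5 to 47.5% at 24 h in the OCT4-FKBP libraries, and its part in the promoter changes of that line was not tested.

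In NANOG-FKBP cells, with 3 libraries at each of these times, 0.0% of peaks were gained and 0.0% lost by edgeR, while 7532 had an unadjusted p under 0.05 and DESeq2 called 7 gained and 31 lost. With the replicate block edgeR called 195 gained and 329 lost. The 1758 peaks lost in SOX2-FKBP cells had a median of -0.13 there, the late lost ones of -0.15 with 66.0% lower, and the 721 gained peaks of -0.00. NANOG-FKBP libraries were uneven, with 2767190 to 12437876 fragments in peaks at 6 and 24 h.

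**Figure D5:**
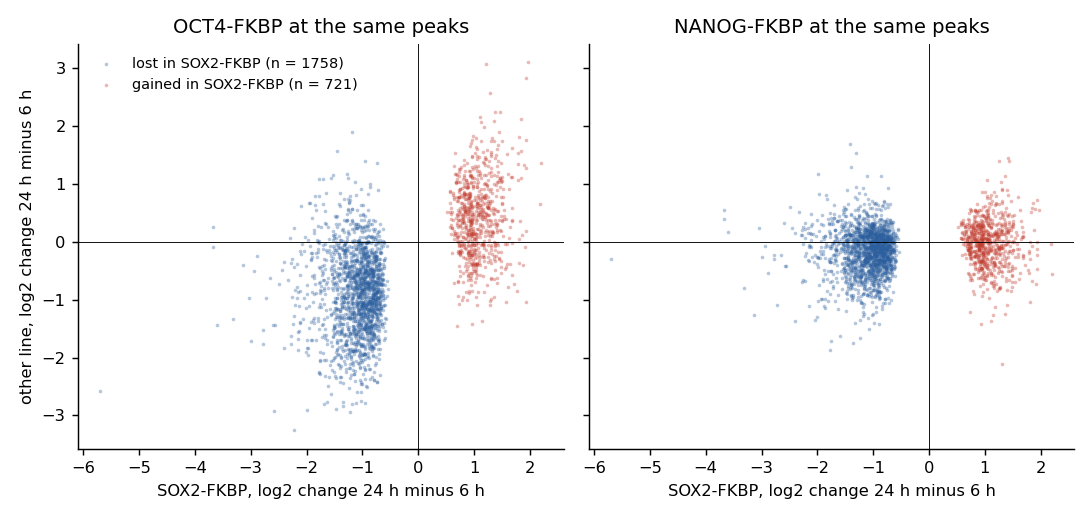
Log2 difference from 6 to 24 h in OCT4-FKBP (left) and NANOG-FKBP cells (right) against that in SOX2-FKBP cells, 1 point per peak, for the 1758 peaks lost (blue) and 721 gained (red) in SOX2-FKBP cells. In OCT4-FKBP cells the blue points center on -0.87 and the red ones on 0.39, and in NANOG-FKBP cells on -0.13 and -0.00.

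The difference between SOX2-FKBP and OCT4-FKBP cells in the change from 6 to 24 h was tested over 166430 peaks in the same fit. It was positive and significant for 37 peaks (0.0222%) and negative for 3 (0.0018%), with 14716 peaks at an unadjusted p under 0.05. The counts were 2063 and 804 with the replicate block. Of the peaks called in SOX2-FKBP cells, 2 of 721 gained and 2 of 1758 lost ones were among them. All 37 peaks with a positive difference were lost in OCT4-FKBP cells, where their median was -1.95, and had a median of 0.16 in SOX2-FKBP cells. In this fit, which has a single estimate of the spread for all 27 libraries, 35 peaks were gained and 133 lost in SOX2-FKBP cells, so it finds fewer changes there than the fit on the 12 SOX2-FKBP libraries.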

How the data were processed

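Tagged mESC were profiled by ATACseq at 6 times of SOX2 depletion and 4 times of OCT4 and NANOG depletion. Per the labels and methods, the authors aligned reads to mm10 (bwa mem), filtered alignments at mapping quality 10, removed duplicates with Picard and called peaks with MACS2 on merged libraries. BWA 0.7.17-r1188, SAMtools 1.10 and Picard 2.12.0 are named in the submitters' processing notes. The deposited count table gives the raw count of fragments over each of 184964 peaks in 31 libraries, with no normalization. From the deposited peak list the position and summit of each peak were used, and none of the peak caller's scores. No shift of cut sites is stated in the sources used here. The other 14 samples of the series were not analysed here.

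A peak entered the test when at least 3 of the 12 SOX2-FKBP libraries had above 10 counts in it. The test was that of edgeR 4.0.16 in R 4.3.3 (TMM, quasi-likelihood, group means, contrast 24 h minus 6 h, Benjamini-Hochberg over 160432 peaks, adjusted p under 0.05). A normalized count is the count divided by the library's effective size and multiplied by the mean effective size. The standard error of a log2 difference is its size divided by the root of its F statistic. A second fit took the 27 libraries of the 3 lines at NT, 2, 6 and 24 h. Peaks were placed on GENCODE vM21 starts, and distal peaks were assigned to the nearest protein-coding start within 100 kb. Median peak width was 636 bp. Depth was 5664738 to 10887645 fragments in peaks per SOX2-FKBP library, so that differences in peaks of few counts had to be large to be called. DESeq2 1.42.0, other scalings (cyclic loess with limma 3.58.1), filters, sample sets and definitions were alternatives. Only the fit of the 12 SOX2-FKBP libraries without the block was tried on simulated counts. It recovered 67 of 100 peaks changed by 1 on the log2 scale and 97 of 100 changed by 2. Of its 187 calls, 23 were peaks without a change.

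Named peaks are the 6 gained and 6 lost promoter and distal peaks with the largest log2 change (at least 50 normalized counts in the higher group and no overlap of libraries), the 4 largest of each late class, up to 4 called peaks per gene list, those of the 8 genes with most late gained or late lost distal peaks, and the promoters of Sox2 and Nanog. The gene lists, of 16 kinds, were naive pluripotency, formative and primed epiblast, trophectoderm, primitive endoderm, mesendoderm, neural, YAP and TEAD targets, AP-1 subunits and immediate early genes, junction and cytoskeleton, p53 targets, sterol synthesis, Wnt response, DNA methylation, germline, fibroblast and ribosomal protein genes. The members and lists were chosen with earlier results of these data known.

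Replicate numbers are shared between times in the labels. Same-numbered libraries deviated together from their group means: the correlation was 0.08 to 0.22 over all tested peaks, above 0.1 in 11 of 15 pairs of times (0.18 for 6 and 24 h), and 0.12 to 0.51 over the 47033 peaks with a mean above 50 normalized counts, above 0.1 in all 15 (0.35 for 6 and 24 h). The blocked counts are therefore given beside the counts they move by over 1.5 times.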

Additional observations from a re-analysis of the deposited data

Results flagged for a closer look

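The change from 6 to 24 h differed between SOX2-FKBP and OCT4-FKBP cells, by edgeR's test of the difference itself, at 37 peaks where it was more positive in SOX2-FKBP cells and at 3 where it was more negative. All peaks named here were chosen after their values were seen. The leading one of the 37 lies 1.0 kb from the Plec start. It held 73.9 and 74.9 normalized counts at 6 h and 103.0 and 74.0 at 24 h in SOX2-FKBP cells, but 178.4 and 167.1 at 6 h and 24.1 and 28.5 at 24 h in OCT4-FKBP cells (difference 2.96 ± 0.39, adjusted p = 0.000542, edgeR). A peak 7.1 kb from Esrrb, which encodes an orphan nuclear receptor of the naive network, held 151.3 and 158.5 at 6 h and 120.0 and 110.5 at 24 h in SOX2-FKBP cells and went from 202.7 and 207.1 to 20.1 and 29.9 in OCT4-FKBP cells (2.61 ± 0.41, adjusted p = 0.00484).

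The 3 peaks with a negative difference lie 102.7 kb from Sp3, 7.8 kb from Nek6 and 24.5 kb from Cdh5. The peak near Nek6 held 53.5 and 51.9 normalized counts at 6 h and 70.7 and 49.3 at 24 h in SOX2-FKBP cells and rose from 9.6 and 12.4 to 57.5 and 71.2 in OCT4-FKBP cells (difference -2.34 ± 0.45, adjusted p = 0.0462, edgeR). The peak near Sp3 held 62 and 47.5 at 6 h and 27.8 and 19.6 at 24 h in SOX2-FKBP cells, and rose from 12.4 and 13 to 38.8 and 57.0 in OCT4-FKBP cells (-3.11 ± 0.51, adjusted p = 0.0111). The factor depleted and the E14 or V6.5 line cannot be told apart, and the number of such peaks moved widely with the libraries in the fit.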

How the results depend on the processing

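No named peak changed direction where an alternative gave it an adjusted p. Of 102 named peaks, 100 were called, 21 of them under every alternative that gave them an adjusted p. Over 1755 values 1433 kept their side of the threshold, 318 lost significance, 4 gained it and none reversed. In the called peaks both 24 h libraries lay beyond both 6 h libraries. A reversal was thus hardly possible, and its absence is no support for the calls. Peaks without a value were left out of these counts. DESeq2 gave values for 60 named peaks, of which 38 kept their side and 22 lost significance. The filter of 10 counts in every library kept 69. The 21 can thus include peaks that DESeq2 did not call. The counts moved more, and the cause was not tested. DESeq2's Wald test called 83 gained and 651 lost peaks (promoters 24 and 42, distal 48 and 537), 64 late gained and 326 late lost peaks with 0 and 14 passing the step difference, and 140 lost further and 1 regained of peaks lost at 2 h. Scaling by total counts gave 2698 lost, 2278 distal lost and 1404 late lost peaks, 162 passing the step difference, and 4 regained. Cyclic loess offsets gave 5 late gained peaks past the step difference and 15 regained peaks, and no count filter gave 5 regained. With NT, 6 and 24 h libraries alone, 1286 were gained and 2715 lost (promoters gained 293, distal 871 and 2304), 923 late gained, and 8 and 159 passed the step difference. Requiring a change under 0.25 at 6 h left 214 late gained and 530 late lost peaks, and an adjusted p under 0.01 left 130 and 285. Gains among all calls made up 29.7% in edgeR, 11.3% with DESeq2, 17.8% with total counts and 42.6% with the block. Counts of the SOX2-FKBP comparison stayed within 1.5 times under DESeq2's size factors in edgeR, GC offsets, the filter of 10 counts in every library and promoters of 1000 bp.

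The replicate block gave 3878 gained and 5233 lost peaks (promoters 1306 and 315, distal 2233 and 4425), 2678 late gained and 2257 late lost peaks with 38 and 411 passing the step difference, and 1280 lost further and 103 regained. With the replicate block and GC offsets these were 3602 and 4979 (731 and 440, 2545 and 4015), 2320 and 2307 with 62 and 397, and 1065 and 143.

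The difference between SOX2-FKBP and OCT4-FKBP cells was positive and negative at 94 and 10 peaks with DESeq2, 15 positive with DESeq2's size factors, 87 and 1 with total counts, 111 and 6 with 10 counts in every library, 222 and 18 with the libraries of both lines alone, and 2063 and 804 with the replicate block.

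Leaving out 1 library of NT, 2, 6 or 24 h at a time (2 h added after the data were seen; none of 0.5 or 1 h was left out) gave 57 to 708 gained and 387 to 1686 lost peaks, 8 to 131 and 16 to 106 promoters, 44 to 505 and 318 to 1420 distal peaks, 43 to 527 late gained and 248 to 875 late lost peaks with 0 to 2 and 4 to 86 passing the step difference, 84 to 291 lost further and 1 to 7 regained, and 1 to 65 positive and 0 to 5 negative differences between the lines. The lone sample then left at 1 time is assumed to vary like the other times. With 2 libraries at each time, peaks of few counts limit what can be called.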

Other observations

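Some peaks opened within 2 h, were still open at 6 h and were closed again by 24 h. An intronic peak 46.6 kb from Tmem154 held 23.4 and 24.1 normalized counts at NT, 72.6 and 58.0 at 2 h, 53.3 and 59.1 at 6 h, and 11.6 and 17 at 24 h, and the losing step was significant (-1.96 ± 0.28, adjusted p = 0.000137, edgeR). A peak 5.1 kb from Pdgfrb, a growth factor receptor of mesenchymal cells, held 33.9 and 24.1 at NT, 82.0 and 73.8 at 2 h, 61.5 and 70.1 at 6 h and 43.7 and 20.8 at 24 h (-1.04 ± 0.25 from 6 to 24 h, adjusted p = 0.0243). It is 1 of 4 lost among 61 distal peaks of fibroblast genes, with others near Twist2, Col1a1 and Col3a1, and none was gained there by edgeR or DESeq2 (1 at an unadjusted p under 0.05). With the block 5 were lost, where 3.65% of all distal peaks were. None of the 6 promoter peaks of that list was called by edgeR or DESeq2, with 1 at an unadjusted p under 0.05.

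Among lists of general cell functions, single peaks were called. For reference, 0.442% of all distal peaks were gained and 1.23% lost, and 0.596% of all promoter peaks were gained. The promoter of Jund, an AP-1 subunit, was gained (0.52 ± 0.14, adjusted p = 0.048, edgeR), with 400.5 and 338.9 normalized counts at 6 h and 547.4 and 513.7 at 24 h. It is 1 of 13 promoter peaks of AP-1 and immediate early genes (7.69%). A peak 2.6 kb from the start of Cdkn1a, the cell cycle inhibitor p21, was the 1 gained of 72 distal peaks of p53 targets, with 232.4 and 124.5 at 6 h and 408.6 and 277.6 at 24 h (0.95 ± 0.24, adjusted p = 0.0338). A peak 12.8 kb from Sqle, for squalene epoxidase, was the 1 lost of 110 distal peaks of sterol synthesis genes (-1.14 ± 0.21, adjusted p = 0.00255). Of 127 distal peaks of Wnt response genes, 1 was gained, near Znrf3, and 1 lost, near Bmp4. Of 127 distal peaks of junction and cytoskeleton genes, 1 was gained, near Vim, and 2 lost, near Cldn3. The distal shares were 1.39% gained for p53 targets and 0.909% lost for sterol synthesis. They were 0.787% in each direction for Wnt response, and 0.787% gained and 1.57% lost for junction and cytoskeleton genes. With the replicate block, the counts gained and lost were 3 and 0 for AP-1 promoters. For distal peaks they were 4 and 0 for p53 targets, 2 and 1 for sterol synthesis, 2 and 2 for Wnt response and 4 and 6 for junction and cytoskeleton genes. In that fit, 5.68% of all promoter peaks were gained and 1.37% lost, and 1.84% of all distal peaks were gained and 3.65% lost.

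Of 84 promoter peaks of ribosomal protein genes, 1 was lost (Rpl39l, -1.03, adjusted p = 0.0305, edgeR) and none gained, with 10 higher at an unadjusted p under 0.05. The lost share was 1.19%, against 0.483% of all promoter peaks. Of 281 distal peaks 3 were lost (1.07%, against 1.23% of all distal peaks). With the block, 2 promoter peaks were gained and 1 lost, against 5.68% and 1.37% of all promoter peaks. Of the distal peaks, 4 were gained and 6 lost in that fit, against 1.84% and 3.65% of all distal peaks. In OCT4-FKBP cells, 36 of the promoter peaks of ribosomal protein genes were gained, where 10.2% of all promoter peaks were. No peak of the DNA methylation list (12 promoter and 74 distal peaks) or of the germline list (10 and 10) was called by DESeq2 or by edgeR without the block, with 4 and 5 at an unadjusted p under 0.05, and with the block 2 and 1 distal peaks were lost.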
